A study of Mus musculus with 8 samples.

Results

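Elf5, Tfap2c, Rhox5, Rhox6 and Rhox9 are genes of the extraembryonic lineages whose activity is tied to DNA methylation. They were chosen by name and make up 5 of the 55422 features counted. The study asked what the loss of the TET enzymes does to cell fate in mouse chimaeras, which are embryos made of host cells and injected embryonic stem (ES) cells. The ES cells were Tet-TKO, meaning that Tet1, Tet2 and Tet3 are all deleted, on a mixed C57BL/6J-129Sv background, and they carried an H2B-tdTomato reporter driven by the CAG promoter. The host cells were wild-type (WT host) C57BL/6J, so strain and genotype cannot be told apart in any comparison. A single Tet-TKO ES cell line was used, embryos were pooled, and tdTomato-positive and tdTomato-negative cells were sorted and profiled by 10x 3′ single-cell RNA-seq. Libraries came from embryonic days 7.5 (E7.5), with 1 per genotype, and 8.5 (E8.5), with 4 from Tet-TKO and 2 from WT host cells.

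Unique molecular identifier (UMI) totals lay between 65601218 and 136982886 per library, and between 1012 and 9552 cells per library were kept. Tet-TKO libraries 3 and 4 held the fewest cells, 2304 and 1012, at the deepest median, 40387 and 68704 UMIs per cell. Expression profiles of Tet-TKO libraries 1 and 2 (Pearson's r = 0.9951) and of libraries 3 and 4 (r = 0.9934) were closer to each other than either pair was to the other pair, so the 4 libraries may not be 4 independent samples. The 2 E8.5 WT host libraries were nearly as alike (r = 0.9929), so they too may not be independent. Between 0 and 28 cell barcodes were shared by any 2 libraries. Levels are given as CPM, a gene's UMIs scaled to a common total, and tdTomato stood at 71.7 to 145 CPM in embryonic cells of the 5 Tet-TKO libraries and at 0.570 to 0.971 CPM in the 3 WT host libraries. Xist, expressed from the inactive X chromosome of female cells, stood at 2.11 to 10.6 CPM in Tet-TKO and 164 to 373 CPM in WT host embryonic cells, and what this difference has to do with the X-linked Rhox genes was not tested. Tet1 stood at 9.92 to 20.9 CPM in Tet-TKO and 20.5 to 22.5 CPM in WT host cells at E8.5. Tet2 stood at 5.56 to 10.6 CPM against 4.76 and 5.04 CPM, and Tet3 at 22.5 to 37.5 CPM against 23.5 and 24.4 CPM. No Tet gene was thus lower in every Tet-TKO library than in both WT host libraries, and Tet2 was higher in each. Tags of the 3′ end outside the deleted part do not check the deletion.

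Injected ES cells contribute to derivatives of the epiblast and only rarely to trophoblast or primitive endoderm, so the trophoblast and extraembryonic endoderm of a chimaera come largely from the host, whereas extraembryonic mesoderm such as the allantois arises from the epiblast. Elf5 is an ETS-family transcription factor that sustains trophoblast stem cells in a loop with Cdx2 and Eomes, and its promoter is methylated in the embryonic lineage and unmethylated in trophoblast, for which it has been called the gatekeeper of the trophoblast fate. Tfap2c encodes the transcription factor AP-2γ, which acts in trophoblast, in primordial germ cells (PGCs) and in the surface ectoderm and neural crest. Rhox5 (also known as Pem), Rhox6 and Rhox9 belong to the reproductive homeobox cluster of the X chromosome, which is active in placenta, endoderm and germ line and is silenced by DNA methylation in somatic cells of the embryo. TET enzymes oxidise 5-methylcytosine and so take part in the removal of this methylation.

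In GRCm38 with the GENCODE M21 annotation, Elf5 (ENSMUSG00000027186) is a protein-coding gene on the plus strand of chr2:103411688-103450989, with up to 8 exons, and Tfap2c (ENSMUSG00000028640) lies on the same strand at chr2:172549593-172558622, with up to 7 exons. Rhox5 (ENSMUSG00000095180, plus strand, chrX:37804842-37808876), Rhox6 (ENSMUSG00000006200, plus strand, chrX:37826910-37829857) and Rhox9 (ENSMUSG00000068048, minus strand, chrX:37899097-37901770) have up to 4 exons each and are 3 of the 42 annotated Rhox genes, which span chrX:37213804-38306028. In the last 500 bases of their transcripts, where 3′ tags fall, Rhox6 and Rhox9 share 15 runs of 31 bases, which is 3.19% of those of Rhox6 and 1.96% of those of Rhox9. No other member shared such a run with another Rhox gene or member. A small part of the Rhox6 and Rhox9 counts could therefore be split between them by the aligner.

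Promoter sequences from RefSeq (GRCm38.p6) were held for 2 of the 5 members, and they are printed because the CG dinucleotides in them are the sites at which methylation acts. Each runs 5′ to 3′ on the plus strand from 250 bases before to 50 bases after a transcription start, in lower case with every CG in capitals.
Elf5, first start (chr2:103411848-103412147): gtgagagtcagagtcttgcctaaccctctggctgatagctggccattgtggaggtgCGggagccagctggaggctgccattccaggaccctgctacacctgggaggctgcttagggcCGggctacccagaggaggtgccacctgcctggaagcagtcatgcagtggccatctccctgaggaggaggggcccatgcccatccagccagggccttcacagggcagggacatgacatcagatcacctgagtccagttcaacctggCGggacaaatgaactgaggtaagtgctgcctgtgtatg
Elf5, second start (chr2:103423818-103424117): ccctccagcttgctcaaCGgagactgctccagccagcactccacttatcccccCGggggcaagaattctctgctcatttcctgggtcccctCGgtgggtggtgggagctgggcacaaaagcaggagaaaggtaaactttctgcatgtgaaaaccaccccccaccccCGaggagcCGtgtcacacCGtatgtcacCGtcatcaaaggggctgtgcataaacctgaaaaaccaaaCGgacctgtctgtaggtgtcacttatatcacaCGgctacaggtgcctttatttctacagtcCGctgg
Rhox5 (chrX:37754358-37754657): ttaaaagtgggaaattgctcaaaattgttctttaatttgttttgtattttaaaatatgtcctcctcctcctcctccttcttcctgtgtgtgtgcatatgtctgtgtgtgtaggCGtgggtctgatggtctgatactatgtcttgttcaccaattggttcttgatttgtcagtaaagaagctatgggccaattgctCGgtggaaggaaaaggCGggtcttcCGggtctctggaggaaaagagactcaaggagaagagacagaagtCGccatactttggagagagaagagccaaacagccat
The first Elf5 window holds 3 CG, and 31.4% of the 32851 RefSeq promoters of this length hold as few. The second Elf5 window holds 10 CG (58.6% of promoters hold as few or fewer), and the Rhox5 window holds 5 (43.6%), against a median of 7. The Rhox5 window ends 50185 bases upstream of the gene start in the GENCODE annotation, so it is the promoter of a RefSeq start outside that gene model. Methylation was not measured in these libraries, and 3′ tags do not show which start was used.

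Cells were clustered without the 5 members, every other Rhox gene, the Xlr genes, Trap1a, Xist, the Tet genes and tdTomato, and clusters were named from marker lists that hold none of the members. The levels below therefore did not take part in forming or naming the groups of cells. All 5 members were present in ExE ectoderm-like cells, the trophoblast of the early conceptus, named from a list of markers that includes Wnt7b, Ascl2, Esrrb, Bmp8b, Gjb5, Plac1 and Sox21. There were 1861 such cells in the WT host library at E7.5 and 139 and 48 in those at E8.5, whereas the Tet-TKO library at E7.5 held 8 and those at E8.5 held 0.

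Elf5 stood at 364 CPM in the ExE ectoderm-like cells of the E7.5 WT host library (95% exact Poisson interval 357 to 370, which like all intervals here covers counting error only). In the E8.5 WT host libraries it stood at 221 CPM (205 to 237) and 212 CPM (184 to 242), so both were below the E7.5 library and their intervals overlapped each other. With 1 library at E7.5 the difference between stages has no replicate check. When each cell was thinned to 5000 UMIs, 78.7% of cells had an Elf5 UMI at E7.5 (exact Clopper-Pearson interval 76.7 to 80.6) and 47.0% and 54.2% at E8.5. The corresponding shares in the visceral and ExE endoderm-like cells, the yolk sac endoderm, were 3.17% at E7.5 and 0.425% and 0% at E8.5, the last from 227 cells with 0 UMIs before thinning. Elf5 thus separated trophoblast from the other large extraembryonic class of the same libraries, whose level of it was 8.31 CPM at E7.5 and 1.88 and 0 CPM at E8.5.

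Tfap2c was close at both stages, with 158 CPM at E7.5 and 159 and 137 CPM at E8.5 in ExE ectoderm-like cells, and 50.5%, 50.7% and 56.2% of thinned cells had a UMI. In visceral and ExE endoderm-like cells it stood at 3.97 CPM at E7.5 and at 0.853 and 0.627 CPM at E8.5. Neither Elf5 nor Tfap2c was therefore above 10 CPM in the visceral and ExE endoderm-like cells of the WT host.

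Rhox5 was seen in both large extraembryonic classes. Its level in ExE ectoderm-like cells was 2039 CPM at E7.5 and 1550 and 2128 CPM at E8.5, so the E7.5 library fell between the E8.5 libraries. In visceral and ExE endoderm-like cells it was 1165 CPM at E7.5 and 1156 and 1135 CPM at E8.5, and between 97.3% and 99.2% of thinned cells had a Rhox5 UMI. In parietal endoderm-like cells, the outer endoderm of the yolk sac, it was 603 CPM in the 37 cells of E8.5 WT host library 1 and 1823 CPM in the 26 cells at E7.5, which also held Elf5 at 22.8 CPM and Tfap2c at 57.0 CPM, from 2 and 5 UMIs.

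Rhox6 and Rhox9, the paired placental members, were higher at E8.5 than at E7.5 in ExE ectoderm-like cells, in both E8.5 libraries. Rhox6 stood at 81.8 CPM at E7.5 and 145 and 183 CPM at E8.5. Rhox9 stood at 42.0 CPM at E7.5 and 71.8 and 101 CPM at E8.5. None of the E8.5 Poisson intervals reached the E7.5 ones, but the change with stage again rests on 1 library at E7.5. In visceral and ExE endoderm-like cells Rhox6 was 33.6 CPM at E7.5 and 30.9 and 45.7 CPM at E8.5, whereas Rhox9 was 2.35, 1.53 and 1.25 CPM, so each was lower there than in trophoblast. In the parietal endoderm-like cells of E8.5 WT host library 1, Rhox6 stood at 125 CPM and Rhox9 at 19.3 CPM.

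**Figure D1:**
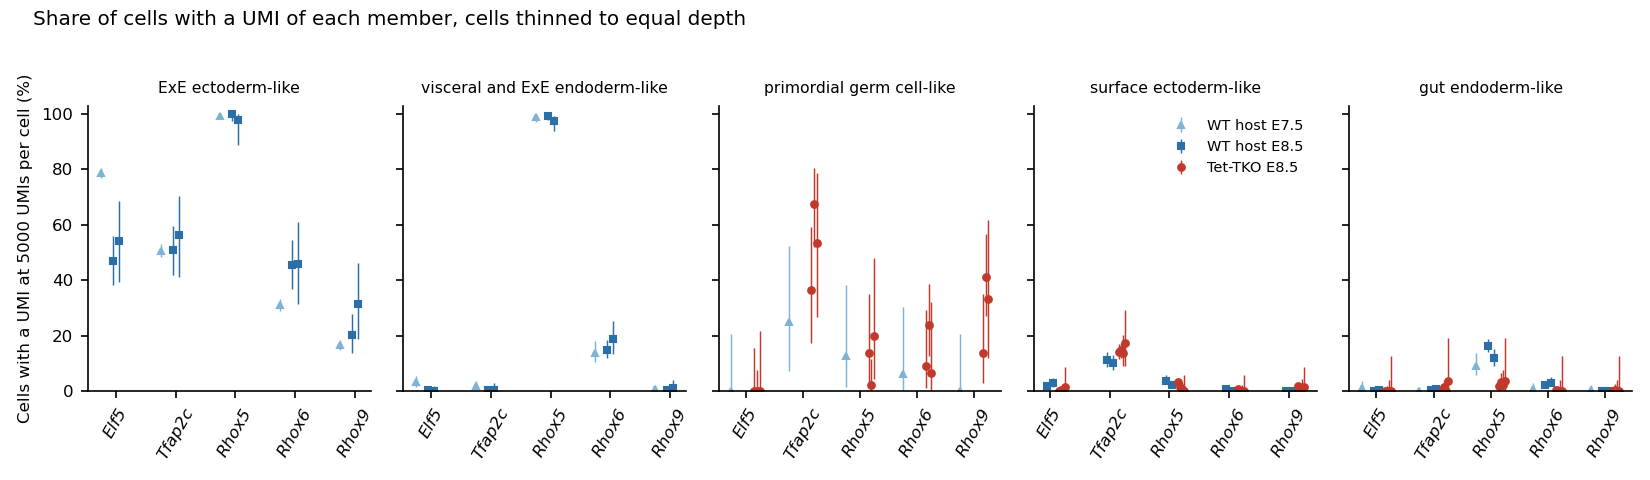
Share of cells with at least 1 UMI of each member after each cell was thinned to 5000 UMIs (percent, vertical axis), with 1 point per library and 95% exact binomial intervals, for WT host E7.5 (light blue triangles), WT host E8.5 (blue squares) and Tet-TKO E8.5 (red circles). In ExE ectoderm-like cells Elf5 was seen in 78.7% of cells at E7.5 and in 47.0% and 54.2% at E8.5, Rhox5 was seen in nearly every cell of both extraembryonic classes, and PGC-like cells had Tfap2c and Rhox9 without Elf5.

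Within the E7.5 ExE ectoderm-like class, the 2 large clusters differed in their balance of the members. Cluster 0, led by Nr0b1 and Zfp42, held 1058 WT host cells with Elf5 at 451 CPM and Tfap2c at 135 CPM. Cluster 3, led by Ascl2, a regulator of the ectoplacental cone, and with Gjb5 among its leading genes, held 642 cells with Elf5 at 261 CPM and Tfap2c at 215 CPM. Elf5 and Rhox5 (2438 against 1604 CPM) were thus higher in cluster 0, and Tfap2c, Rhox6 (69.3 against 115 CPM) and Rhox9 (39.7 against 51.3 CPM) were higher in cluster 3. These clusters came from the same cells and 1 library, so no test was made. The cells of a smaller cluster, 28, were all called doublets, and 59 cells (cluster 31) were shallow. Elf5 stood at 185 and 201 CPM in these 2 clusters.

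Most barcodes of the ExE ectoderm-like class held UMIs of several members. Of the 1861 ExE ectoderm-like cells at E7.5, 22.9% held UMIs of all 5 members, 41.4% of 4 and 27.8% of 3, and 1 cell held none. Elf5 and Tfap2c were detected together in 79.9% of cells, and in 39.2% after thinning, against 1.41% and 0.865% of visceral and ExE endoderm-like cells of the same library. These shares include cluster 28, so a droplet with several members need not be a single cell. At E8.5, 37.4% and 33.3% of the WT host cells of this class held all 5 members before thinning and 2.24% and 0% after it, so the count of members per cell depended on depth.

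The few cells that carried Tet-TKO library labels in these classes had mixed signs of origin. The 8 ExE ectoderm-like cells of the E7.5 Tet-TKO library had Elf5 at 216 CPM (161 to 284), Tfap2c at 67.8 CPM, Rhox5 at 1496 CPM, Rhox6 at 55.1 CPM and Rhox9 at 17.0 CPM. They held 4 tdTomato UMIs in 3 cells and Xist at 63.6 CPM, and 3 of the 8 lay in cluster 28 and were called doublets. The 56 visceral and ExE endoderm-like cells of that library held Rhox5 at 755 CPM (656 to 864), with Rhox6 at 83.4 CPM, Rhox9 at 21.8 CPM (from 6 UMIs), Xist at 356 CPM and 12 tdTomato UMIs in 10 cells. At E8.5 the 4 Tet-TKO libraries held 7, 2, 8 and 4 such cells, with Rhox5 at 1496, 943, 1541 and 838 CPM. The 27 parietal endoderm-like cells of the E7.5 Tet-TKO library, with Xist at 182 CPM and 3 tdTomato UMIs, held 1 Rhox5 UMI (15.2 CPM) and 0 UMIs of the other members. The genotypes were not tested against each other in the extraembryonic classes for this reason.

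Summed over all kept cells of a library, Elf5, Rhox5 and Rhox6 had their highest values in both WT host libraries, which held nearly all extraembryonic cells. Elf5 stood at 0.0658, 0.0976, 0.136 and 0.154 CPM in the 4 E8.5 Tet-TKO libraries and at 6.18 and 2.07 CPM in the 2 WT host libraries. The groups did not overlap, and WT host library 1, with the most ExE ectoderm-like cells, was the higher of the pair. From these sums alone fewer cells of a type and less RNA per cell cannot be told apart. Of the 1074 WT host Elf5 UMIs, 932 lay in the 187 ExE ectoderm-like cells, a class absent from the E8.5 Tet-TKO libraries. Of the 1401 WT host Rhox6 UMIs, 656 lay in that class and 509 in visceral and ExE endoderm-like cells. Of the 21075 genes tested with edgeR's quasi-likelihood test, 558 (2.65%) were called at a Benjamini-Hochberg adjusted p below 0.01 and an absolute log2 fold change of at least 1, and 2.06% were called lower in Tet-TKO. Of the 5 members 2 were called, both lower: Elf5 (log2 fold change -5.31, SE 0.472, adjusted p = 0.0021) and Rhox6 (-3.54, SE 0.370, adjusted p = 0.00333). Rhox6 stood at 0.417, 0.659, 0.450 and 0.399 CPM in Tet-TKO and at 7.51 and 3.27 CPM in WT host, again without overlap. Its call was lost when Tet-TKO library 1 (-3.49), 3 (-3.47) or 4 (-3.44) or WT host library 1 (-2.85) was left out.

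Rhox5 over all kept cells stood at 19.2, 20.8, 14.7 and 11.3 CPM in Tet-TKO and at 165 and 57.7 CPM in WT host. The groups did not overlap, but the difference (-2.81, SE 0.429) had an adjusted p of 0.0107 and missed the threshold. Tfap2c (-0.35, SE 0.176, adjusted p = 0.257) and Rhox9 (-0.31, SE 0.425, adjusted p = 0.672) did not pass the test. Of the kept cells, 7038 of 7045, 9550 of 9552, 2294 of 2304 and 1008 of 1012 in the Tet-TKO libraries lay outside the extraembryonic classes, against 7540 of 8260 and 8754 of 9038 in the WT host libraries. These sums therefore differ in composition, and the next comparison leaves the extraembryonic classes out.

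**Figure D2:**
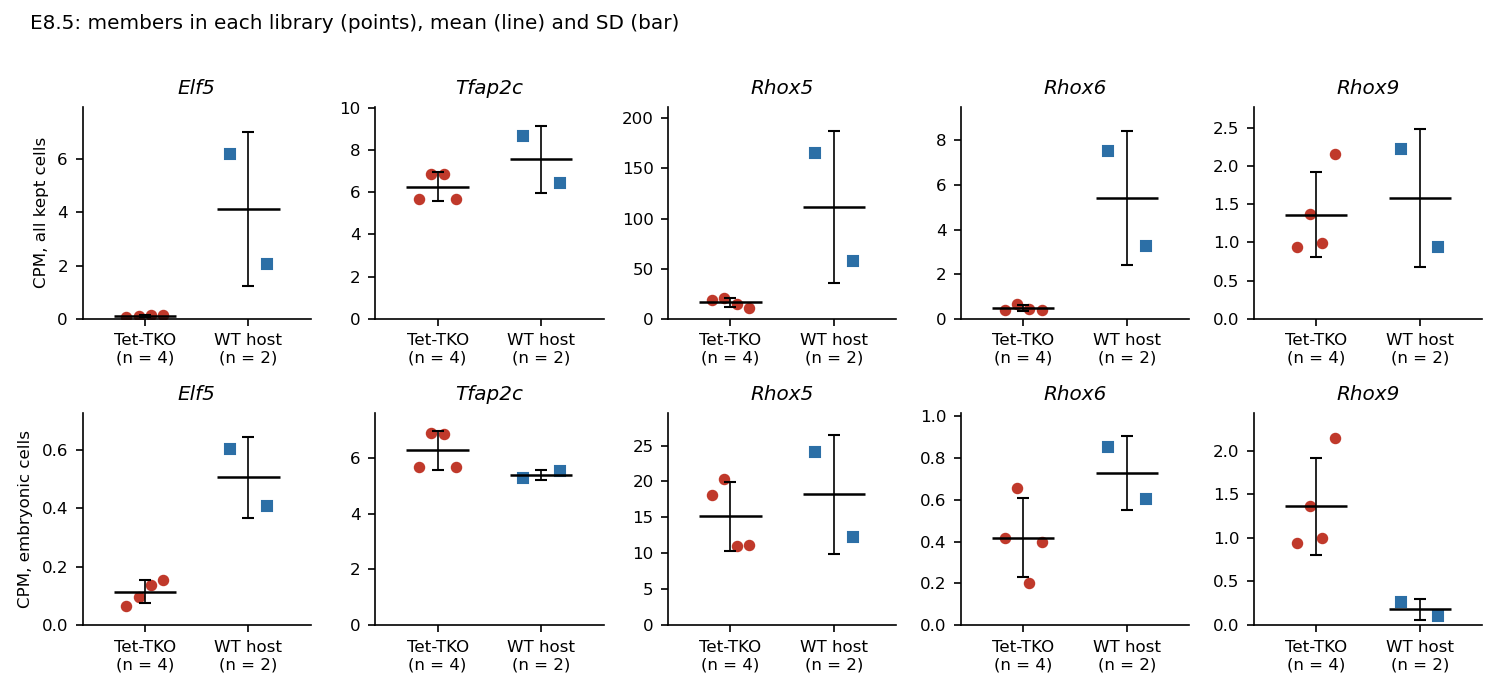
Level of each member in CPM at E8.5, over all kept cells (top row) and over embryonic cells alone (bottom row), with 1 point per library (Tet-TKO, red circles, n = 4; WT host, blue squares, n = 2), the mean as a line and the SD as a bar; each panel has its own axis from 0. Rhox5 reached 165 CPM in WT host over all cells but 24.1 CPM over embryonic cells, and Rhox9 was higher in each Tet-TKO library than in either WT host library over embryonic cells.

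In embryonic cells alone, Elf5 was near 0 in both genotypes. It stood at 0.0659, 0.0976, 0.137 and 0.154 CPM in Tet-TKO (mean 0.113, SD 0.0394, n = 4) and at 0.604 and 0.408 CPM in WT host. Each WT host library lay above every Tet-TKO library. Across the 20920 genes tested, 422 (2.02%) were called, 0.511% higher and 1.51% lower in Tet-TKO. That count fell to between 24 (without WT host library 2) and 254 when a library was left out, and to 4 when the alike Tet-TKO libraries 1 and 2, and 3 and 4, were summed. Of the 5 members 0 were called by edgeR, 2 had an unadjusted p under 0.05 (24.6% of all genes did), and DESeq2, which called 5.4% of all genes, called those same 2, Elf5 and Rhox9. An edgeR fit of libraries 1 and 2 of each genotype with the replicate number as a block called them too. That fit called more genes in all than the main fit, and its Tet-TKO libraries are an alike pair, so it adds no independent support. The part of free RNA from other cells in the Elf5 levels was not tested. The Elf5 difference was -2.28 (SE 0.337), with an adjusted p of 0.0115 in the main edgeR fit. Over the 22 alternatives its adjusted p ran from 5.53e-05 (DESeq2) to 0.105 (without WT host library 1), and it was 0.0743 with the Tet-TKO pairs summed.

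Rhox9 in embryonic cells pointed the other way. It stood at 0.944, 1.37, 0.998 and 2.15 CPM in Tet-TKO and at 0.268 and 0.0980 CPM in WT host, so every Tet-TKO library was above both WT host libraries. The difference was 2.80 (SE 0.520), with an adjusted p of 0.0237 in edgeR. Over the 22 alternatives its adjusted p ran from 5.8e-07 (DESeq2) to 0.168 (without WT host library 2), and it was 0.0654 with the Tet-TKO pairs summed. When the PGC-like cells, whose Rhox9 is given below, were left out, the difference was 1.81 (adjusted p = 0.0821). Both genes stood below 3 CPM in every embryonic sum, so these differences concern a small part of the RNA.

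The other members overlapped or lay close between genotypes in embryonic cells. Tfap2c stood at 5.67, 6.88, 6.86 and 5.66 CPM in Tet-TKO and at 5.26 and 5.52 CPM in WT host (0.13, SE 0.156, adjusted p = 0.633). Its sign turned when blood cells (-0.14) or PGC-like cells (-0.0126) were left out. Rhox5 stood at 18.1, 20.4, 11 and 11.2 CPM in Tet-TKO and at 24.1 and 12.3 CPM in WT host (-0.32, SE 0.392, adjusted p = 0.653). Rhox6 stood at 0.417, 0.659, 0.20 and 0.400 CPM in Tet-TKO and at 0.855 and 0.604 CPM in WT host (-0.84, SE 0.459, adjusted p = 0.308). Without gut endoderm-like cells the signs of Rhox5 (0.35) and Rhox6 (0.43) turned, and that of Rhox5 also turned without WT host library 1 (0.21), so neither gene had a firm direction in the pooled embryonic cells.

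Within classes of embryonic cells at E8.5, 24 fits gave 27 tests of a member that passed the filter on low counts, 15 of them of Rhox5, 9 of Tfap2c and 1 of each of the others. Of the 27 tests 2 were called, both of Rhox5 and in opposite directions, and 10 had an unadjusted p under 0.05. Over the 24 fits together 0.811% of all tests of a gene were called and 13.0% had an unadjusted p under 0.05. The filter can be passed through the counts of 1 genotype alone. Elf5, Rhox6 and Rhox9 had their only class test where the genotypes did not overlap, and each of those tests is among the 10. The 10 of 27 is therefore not read as an excess over the share of all genes. The levels in every class are shown for both genotypes in the plot by class.

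**Figure D3:**
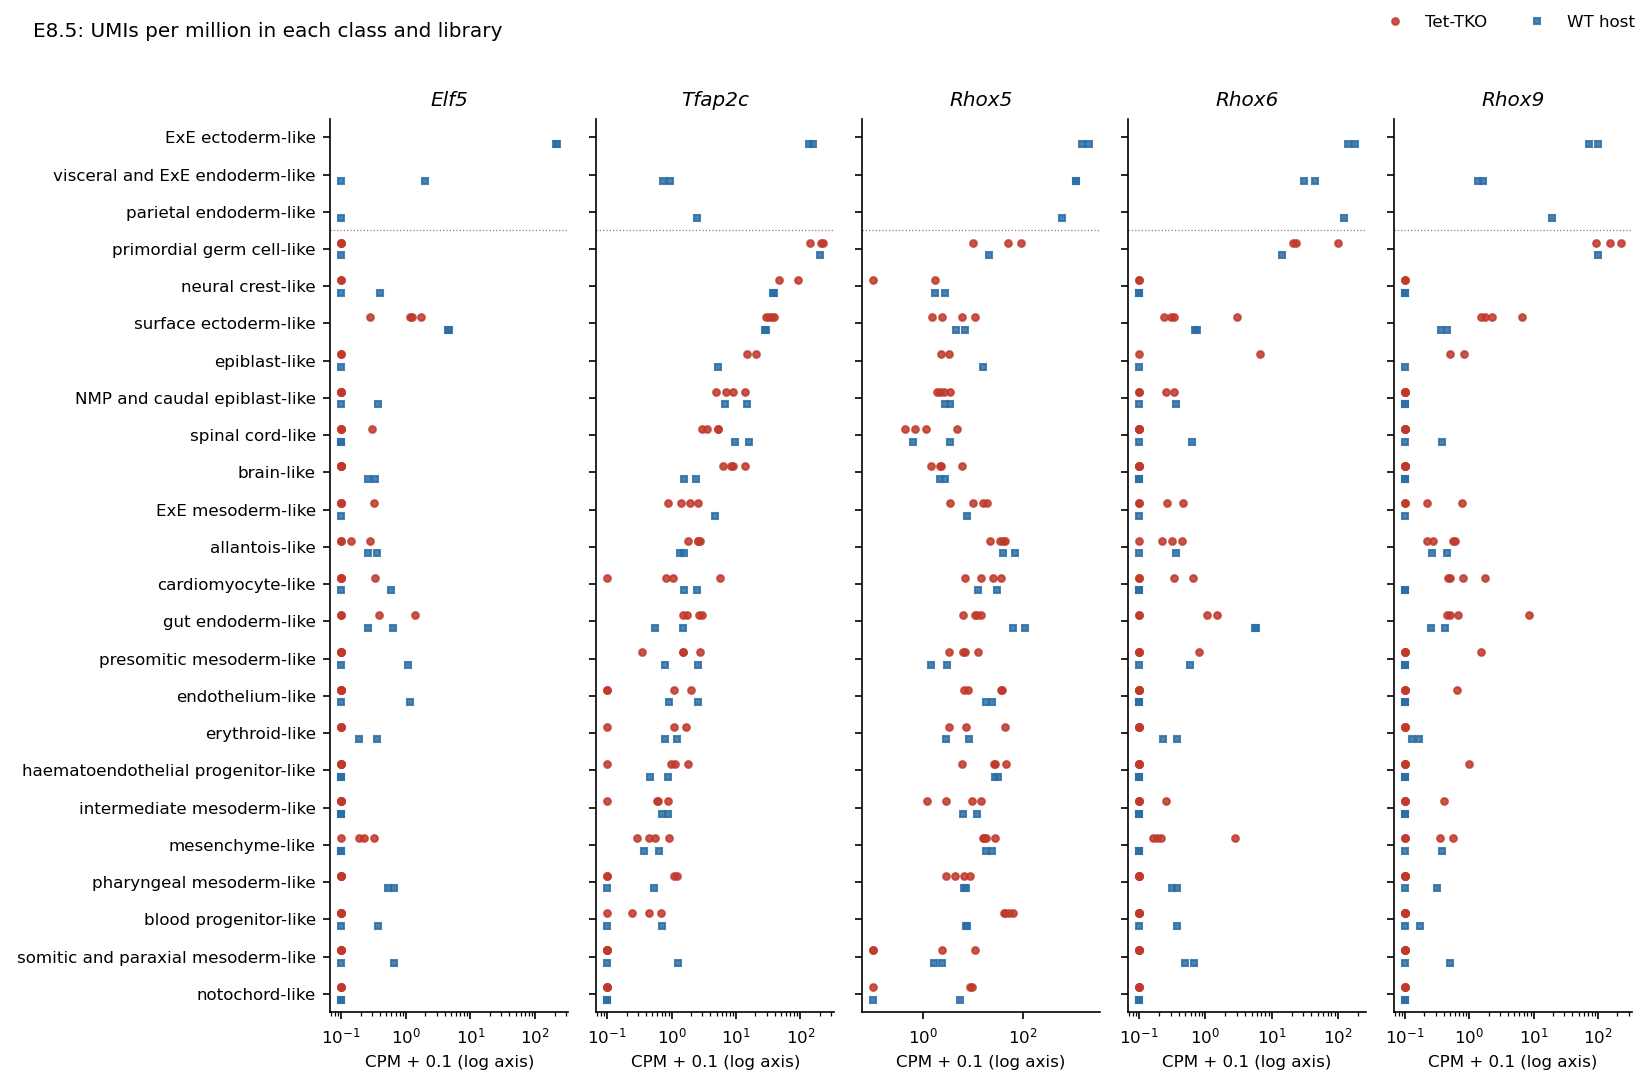
Level of each member at E8.5 in each named class, as CPM + 0.1 on a log axis, with 1 point per library for sums of at least 10 cells (Tet-TKO, red circles; WT host, blue squares). Extraembryonic classes lie above the dotted line and embryonic classes below it; Tfap2c and Rhox9 were also high in PGC-like cells, and Rhox5 differed in direction between blood progenitor-like and gut endoderm-like cells.

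Rhox5 was higher in the blood progenitor-like cells of the Tet-TKO libraries. It stood at 63.8, 41.4, 42.7 and 53.3 CPM in Tet-TKO, from 288, 375, 65 and 24 cells, and at 7.49 and 7.19 CPM in WT host, from 735 and 436 cells. The lowest Tet-TKO library was more than 5 times the higher WT host library. The log2 fold change was 2.64 (SE 0.229, adjusted p = 0.000211), in a class where 2.56% of 10789 genes were called and 1.42% were higher in Tet-TKO. The fold change lay between 2.47 and 2.72 when each library was left out in turn, and it was 2.96 among cells whose tdTomato matched their fraction. No class fit was repeated with the alike Tet-TKO libraries summed, so the effect of their likeness on the class calls was not tested.

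The 2 genotypes filled this class from different clusters. Cluster 11 held 673 and 406 of the WT host cells and 2 of the Tet-TKO cells, and Rhox5 stood at 7.75 and 7.24 CPM in its WT host cells. Cluster 23 held most Tet-TKO cells of libraries 1 to 4, at 57.9, 39.4, 56.2 and 75.3 CPM, beside 45 and 18 WT host cells at 5.43 and 3.48 CPM (3.49, adjusted p = 0.0343). Cluster 40 stood at 88.3, 44.6 and 30.5 CPM in Tet-TKO libraries 1 to 3 and 0 CPM in the 6 cells of library 4, and at 2.83 and 11.5 CPM in WT host (3.25, adjusted p = 1.0). The fold change had the same direction in clusters 23 and 40, the 2 with enough cells of each genotype for a fit, and neither passed the test alone. The 7 erythroid markers, summed, also moved with genotype, at 9802, 26530, 32841 and 13912 CPM in Tet-TKO and 52346 and 63619 CPM in WT host. The WT host cells of cluster 23 had Xist at 17.4 and 3.48 CPM, far under the WT host level in embryonic cells, and library 1 of them held tdTomato at 13.0 CPM. The part of these in the Rhox5 difference was not tested.

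In gut endoderm-like cells, the embryonic tube of endoderm, Rhox5 was lower in Tet-TKO. It stood at 12.2, 14.1, 10.9 and 6.33 CPM in Tet-TKO (424, 221, 94 and 27 cells) and at 109 and 64.6 CPM in WT host (1138 and 525 cells). The highest Tet-TKO library was below either WT host library. The log2 fold change was -2.87 (SE 0.270, adjusted p = 0.00087), in a class where 0.79% of 12285 genes were called and 0.488% were lower. Barcodes under 1500 UMIs, which were not kept as cells, carried Rhox5 at 26.7 to 102 CPM in the Tet-TKO libraries and at 237 and 117 CPM in the WT host libraries, and the part of free RNA in the difference was not tested. Without WT host library 1 the difference was -2.45 and its adjusted p 0.0163, so the call was lost.

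The difference was not spread evenly over the gut clusters. In cluster 24, led by Apela and Nepn, Rhox5 stood at 3.44, 27.5, 0 and 0 CPM in Tet-TKO and 173 and 127 CPM in WT host (-3.88, adjusted p = 0.0037). In cluster 30, led by Spink1 and Pyy, it stood at 33.3 and 0 CPM in Tet-TKO libraries 1 and 2, which alone held 10 cells or more, and at 159 and 81.6 CPM in WT host (-2.19, adjusted p = 0.0043). In cluster 32, led by Nepn and Trh, it stood at 16.5, 12.4, 3.92 and 0 CPM in Tet-TKO and 122 and 51.9 CPM in WT host (-2.83, adjusted p = 0.0215). In cluster 15, led by Trh and by Pax9 and Nkx2-3 of the anterior gut, it stood at 8.72, 1.19, 21.7 and 14.2 CPM in Tet-TKO and at 11.4 and 14.2 CPM in WT host (-0.05, adjusted p = 0.991). High Rhox5 was thus found in 3 clusters of WT host gut and not in cluster 15, where the genotypes overlapped.

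Visceral endoderm cells of the host are known to join the gut tube, and over the whole class markers of that cell type were also higher in WT host. The 9 visceral and ExE endoderm markers summed to 503, 252, 93.6 and 83.6 CPM in the gut endoderm-like cells of Tet-TKO and to 2606 and 1368 CPM in those of WT host. In cluster 30 the sums were 2857 and 2066 CPM in Tet-TKO libraries 1 and 2 and 8531 and 5062 CPM in WT host. In cluster 15 they were 11.4 to 30.1 CPM in Tet-TKO and 73.7 and 44.9 CPM in WT host. The sums of the other gut clusters are not given here, and the part of these markers in the Rhox5 difference was not tested. Rhox6 stood at 0.947, 1.41, 0 and 0 CPM in Tet-TKO gut endoderm-like cells and at 5.51 and 5.82 CPM in WT host, without overlap, and did not pass the test (-2.91, SE 0.622, adjusted p = 0.0517). It was called in 3 of 13 alternatives, DESeq2 among them, and its adjusted p ran from 2.1e-07 to 0.450.

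**Figure D4:**
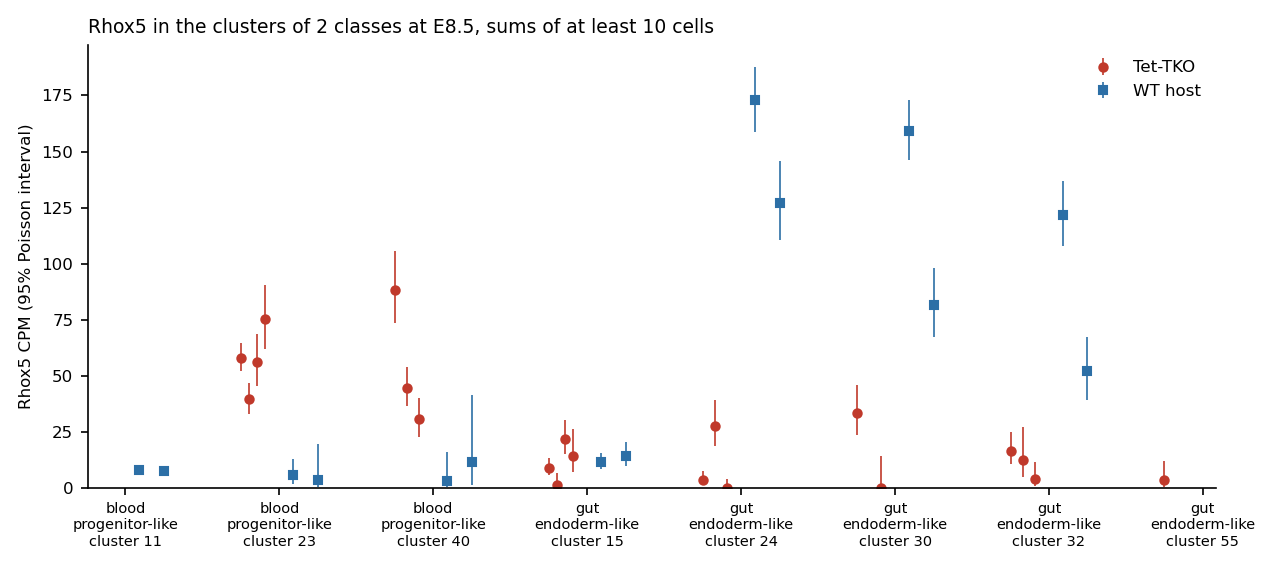
Rhox5 level in CPM in each cluster of the blood progenitor-like and gut endoderm-like classes at E8.5, with 1 point per library for sums of at least 10 cells and 95% exact Poisson intervals (Tet-TKO, red circles; WT host, blue squares). Tet-TKO stood above WT host in clusters 23 and 40, WT host stood above Tet-TKO in gut clusters 24, 30 and 32, and the genotypes overlapped in gut cluster 15.

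Rhox5 in the remaining embryonic classes did not pass the test. In allantois-like cells, an extraembryonic mesoderm of epiblast origin, it stood at 22.2, 44.5, 34.6 and 39.3 CPM in Tet-TKO and at 39.3 and 68.2 CPM in WT host (-0.61, SE 0.287, adjusted p = 0.402), and the groups overlapped. By mean CPM the highest named embryonic classes of the WT host were gut endoderm-like (87.0 ± 31.7, SD, n = 2), allantois-like (53.8 ± 20.4) and haematoendothelial progenitor-like cells (30.1 ± 3.06). In Tet-TKO they were PGC-like (51.0 ± 41.4, n = 3), blood progenitor-like (50.3) and allantois-like cells (35.2 ± 9.55, n = 4). An unnamed cluster of 13 cells in WT host library 1, cluster 60, stood above them at 1463 CPM and also held Elf5 at 111 CPM. Neighbours in both orders lay within their spread, except allantois-like and haematoendothelial progenitor-like cells of the WT host, whose ranges did not overlap.

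Elf5 within the embryo was found mainly in surface ectoderm-like cells, the future epidermis. It stood at 0.182, 1.05, 1.13 and 1.63 CPM in Tet-TKO (626, 709, 168 and 64 cells) and at 4.35 and 4.61 CPM in WT host (562 and 566 cells). Both WT host libraries were above all 4 Tet-TKO libraries. The difference was -2.27 (SE 0.522) with an adjusted p of 0.0959 (1.28e-05 to 0.633 over 12 alternatives, of which 2 gave a call), and 0.495% of 13134 genes were called in this class. After thinning 1.81% and 2.79% of WT host cells had an Elf5 UMI, against at most 1.59% in Tet-TKO. The 8 ExE ectoderm markers, some of which epidermis also uses, summed to 161 to 202 CPM in Tet-TKO and to 157 and 135 CPM in WT host, and the part of trophoblast material in the WT host Elf5 level was not tested. The barcodes under 1500 UMIs held 6 and 0 Elf5 UMIs in the WT host (11.5 and 0 CPM) and 0 in the 4 Tet-TKO libraries, where 3 counts would be 15 to 21.8 CPM, so they do not tell the genotypes apart. The next highest mean of a named embryonic class was 0.522 CPM, in endothelium-like cells of the WT host, and brain-like cells of the 4 Tet-TKO libraries held no Elf5 UMI.

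Tfap2c had the same 3 leading named embryonic classes in both genotypes, and the unnamed cluster 16 stood beside the third of them in the WT host (28.8 ± 2.79 CPM, SD, n = 2, against 15 ± 6.32 CPM, n = 4, in Tet-TKO, adjusted p = 0.414). In PGC-like cells it stood at 141, 207, 227 and 163 CPM in Tet-TKO and at 199 and 334 CPM in WT host, from as few as 6 and 4 cells, and the groups overlapped. In surface ectoderm-like cells it stood at 29.3, 36.1, 39.0 and 33.0 CPM in Tet-TKO and at 29.1 and 28.0 CPM in WT host (0.27, SE 0.144, adjusted p = 0.489). In neural crest-like cells it stood at 92.3 and 45.8 CPM in the Tet-TKO libraries 2 and 3, which alone held 10 cells or more, and at 38.5 and 38.1 CPM in WT host (0.68, SE 0.328, adjusted p = 0.558). The tests give no call for either ectodermal class, and in the surface ectoderm cluster 25 alone the sign turned (-0.15).

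Among neural cells Tfap2c showed opposite signs that did not pass the edgeR test. In brain-like cells it stood at 13.7, 6.24, 8.29 and 8.94 CPM in Tet-TKO and at 1.43 and 2.28 CPM in WT host (2.27, SE 0.429, adjusted p = 0.0194), and the groups did not overlap, in a class where 1.6% of genes were called. Cluster 14, led by En1 and En2 of the midbrain, held most of the Tet-TKO cells (215, 420, 166 and 72) and 10 and 43 WT host cells, and cluster 18, led by Six3 and Hesx1 of the forebrain, held 273 and 387 WT host cells and at most 64 Tet-TKO cells. Within cluster 14 the level was 6.62 to 13.9 CPM in Tet-TKO and 0 and 9.67 CPM in WT host, and these overlapped (0.42, adjusted p = 0.971). Over the class as a whole the difference was called in 4 of 12 alternatives, DESeq2 among them (2.30, adjusted p = 0.000299), and the adjusted p over the 12 ran from 9.71e-08 with no filter on low counts to 0.971 in cluster 14. In spinal cord-like cells it stood at 5.21, 5.17, 3.43 and 2.91 CPM in Tet-TKO and at 16.1 and 9.46 CPM in WT host (-1.59, SE 0.364, adjusted p = 0.124), also without overlap, and 0.277% of genes were called there. That difference was called in 2 of 11 alternatives, with no filter (-1.55) and in a fit of libraries 1 and 2 of each genotype with the replicate number as a block (-1.15), and its adjusted p ran from 0.000561 to 0.931.

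PGC-like cells, the germ line precursors, combined Tfap2c with Rhox9 and without Elf5. At E8.5 they numbered 24, 49, 15 and 6 in Tet-TKO and 10 and 4 in WT host, too few for a test. Elf5 had 0 UMIs in all 6 libraries, which allows a level of up to 5.82 CPM in the deepest of these sums and 66.9 CPM in the shallowest (3 counts). Rhox9, known from fetal germ cells, stood at 92.8, 231, 157 and 267 CPM in Tet-TKO and at 99.4 and 0 CPM in WT host, the last from 4 cells. Rhox6 stood at 21.0, 101, 23.1 and 25.3 CPM in Tet-TKO and at 14.2 and 66.9 CPM in WT host, and library 2 stood apart from the other Tet-TKO libraries. Rhox5 stood at 50.9, 9.69, 92.5 and 136 CPM in Tet-TKO and at 21.3 and 0 CPM in WT host. The 6 PGC markers summed to 934 to 1220 CPM in Tet-TKO and to 1236 and 1695 CPM in WT host, with 5 or 6 of them present in each library.

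In the named embryonic classes at E8.5 other than PGC-like cells, Rhox9 and Rhox6 were below 10 CPM in each library with at least 10 cells of the class. In surface ectoderm-like cells Rhox9 stood at 6.48, 1.64, 2.12 and 1.43 CPM in Tet-TKO and at 0.352 and 0.263 CPM in WT host. Each Tet-TKO library was above both WT host libraries, library 1 by the most, and the test was not passed (3.28, SE 0.933, adjusted p = 0.183), though 2 of 12 alternatives gave a call (adjusted p 1.01e-06 to 0.843). Rhox6 in the same cells was 2.92 CPM in Tet-TKO library 1 and 0.142 to 0.658 CPM in the other 5 libraries. PGC markers in these cells summed to 42.2 CPM in library 1 and to 33.5 to 50.1 CPM in the other 5. The part of PGC-like cells in the library 1 values was not tested. In gut endoderm-like cells Rhox9 was 8.24 CPM in the 27 cells of Tet-TKO library 4 and at most 0.557 CPM elsewhere.

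Each genotype had a single library at E7.5, so the values are given with no test. In embryonic cells Elf5 was 0.420 CPM in Tet-TKO (0.305 to 0.564) and 4.85 CPM in WT host (4.33 to 5.41). Of the 322 WT host UMIs, 122 lay in cluster 35, whose 19 cells were named blood progenitor-like, were all called doublets and carried Elf5 at 228 CPM, and 50 lay in cluster 22. Rhox5 was 11.9 CPM in Tet-TKO and 72.1 CPM in WT host, and of the 4789 WT host UMIs 2766 lay in cluster 22 and 565 in cluster 35. That cluster of 267 WT host and 2 Tet-TKO cells was left unnamed, since it carried visceral endoderm and gut markers alike, and its Rhox5 was 955 CPM. Clusters 22 and 35 together thus held most of the Elf5 and Rhox5 UMIs that the WT host library counted as embryonic. Cluster 34, of 23 WT host cells also counted as embryonic, held Elf5 at 220 CPM, Tfap2c at 347 CPM and Rhox5 at 1175.5 CPM. Over the named embryonic classes the median Elf5 level was 1.96 CPM in WT host and 0 CPM in Tet-TKO. The part of free RNA in the Elf5 levels was not tested. In gut endoderm-like cells, Rhox5 was 7.76 CPM (3.72 to 14.3) in 68 Tet-TKO cells and 20.5 CPM (15.8 to 26.0) in 247 WT host cells, which were close to the medians over the named embryonic classes, 8.41 and 20.1 CPM. Barcodes under 1500 UMIs at E7.5 held Rhox5 at 42.6 CPM in Tet-TKO and 550 CPM in WT host, and their part in these levels was not tested.

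Tfap2c and Rhox9 were closer in the embryonic sums at E7.5. Tfap2c in embryonic cells was 8.23 CPM in Tet-TKO (7.69 to 8.80) and 7.57 CPM in WT host (6.92 to 8.26), and Rhox9 was 0.926 CPM and 0.813 CPM, with intervals that overlapped for both genes. Rhox6 was not, at 0.420 CPM in Tet-TKO and 2.59 CPM in WT host, of which 79 of 172 UMIs lay in cluster 22. PGC-like cells, 80 in Tet-TKO and 16 in WT host, held Tfap2c at 121 CPM (104 to 141) and 65.6 CPM (35.9 to 110). In them Rhox9 was 42.8 CPM (32.8 to 55.0) in Tet-TKO and 9.37 CPM (1.13 to 33.8) in WT host, and Rhox5 was 4.21 CPM (1.55 to 9.17) and 42.2 CPM (19.3 to 80.0). Elf5 had 0 UMIs in the Tet-TKO PGC-like cells (3 counts would be 2.11 CPM) and 1 UMI in those of WT host.

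**Figure D5:**
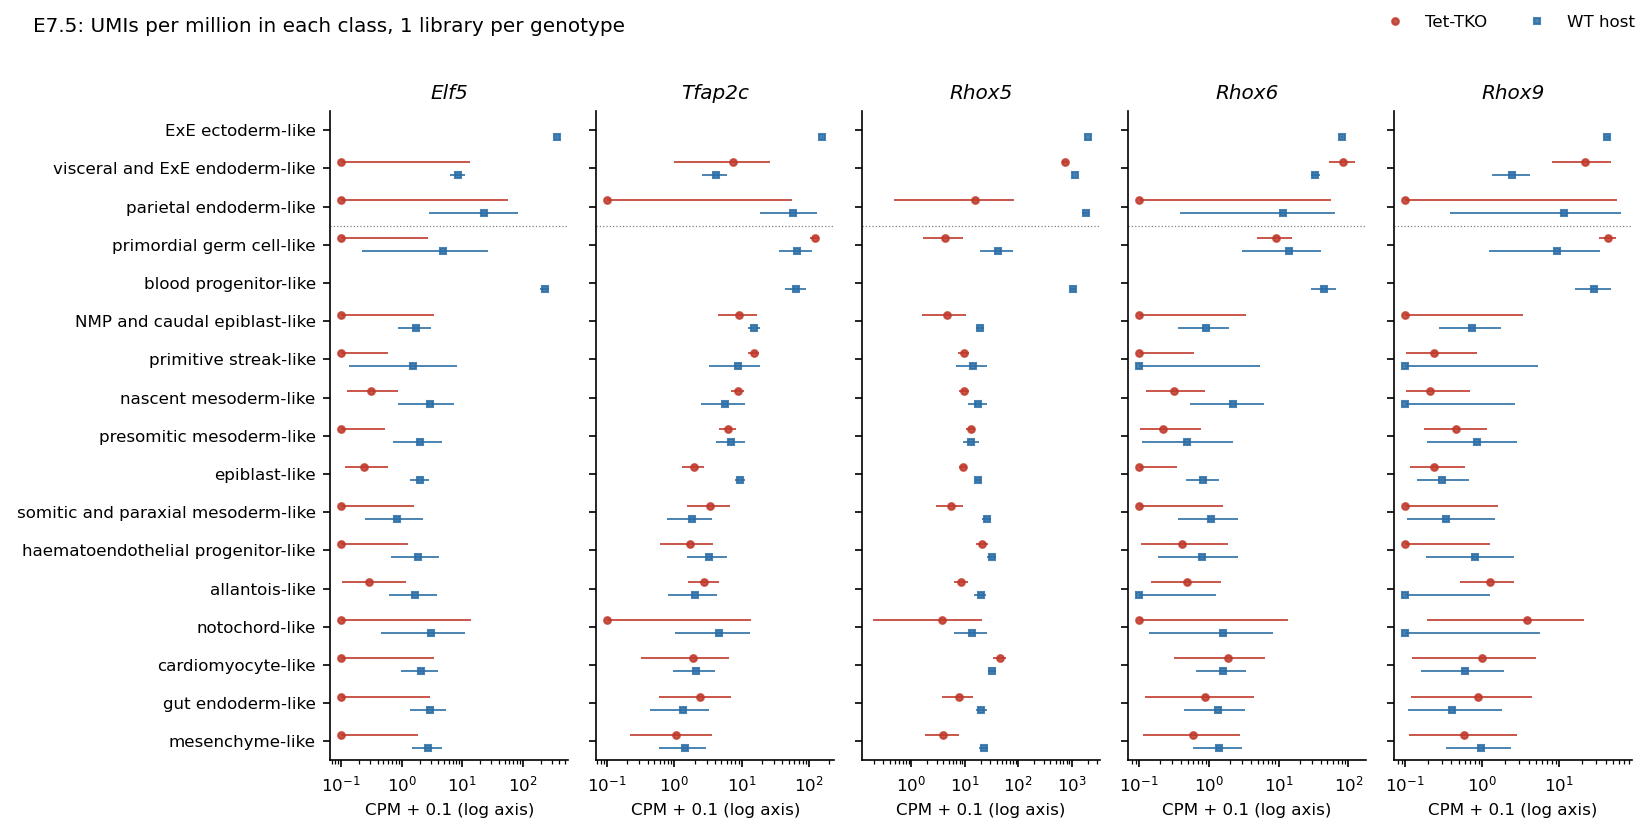
Level of each member at E7.5 in each named class, as CPM + 0.1 on a log axis, with 1 point per genotype for sums of at least 10 cells and 95% exact Poisson intervals (Tet-TKO, red circles; WT host, blue squares; 1 library each). Extraembryonic classes lie above the dotted line; Elf5 at 364 CPM in ExE ectoderm-like and 228 CPM in the 19 blood progenitor-like cells of WT host, all called doublets, stands out from the other classes.

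Genes around the members were followed in lists in the embryonic cells at E8.5, where 2.02% of all tested genes were called, 24.6% had an unadjusted p under 0.05, and the median log2 fold change was 0.0235. All calls in the lists are from edgeR unless DESeq2 is named, which called 5.4% of all genes in either direction. Of 19 trophoblast stem cell and ExE ectoderm regulators, which include the Elf5 partners Cdx2 and Eomes, 18 passed the filter, 0 were called and 5 had an unadjusted p under 0.05 (median 0.21). Of 26 trophoblast differentiation and placental genes 19 passed, 0 were called and 5 had an unadjusted p under 0.05 (median 0.26). DESeq2 called 0 genes of the former list and 3 of the latter, 2 higher and 1 lower. Those 3, named after their values were seen, were Nrk (1.77, adjusted p = 0.0117 in edgeR) and Peg10 (1.02, 0.0499), placental genes, and Plet1 (-1.58, 0.0834).

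Of the 39 other Rhox genes 3 passed the filter and 0 were called: Rhox4c (-0.84), Rhox4d (0.67) and Rhox4e (-0.32). These are near-identical copies, whose reads may not be assignable to 1 gene. Of 15 X-linked and extraembryonic genes silenced by methylation 10 passed and 1 was called higher, Xlr3c, an X-linked lymphocyte-regulated gene, at 1.64, 1.46, 1.77 and 1.88 CPM in Tet-TKO and 0.104 and 0.0735 CPM in WT host (4.15, SE 0.241, adjusted p = 0.000708). It too has near-identical copies. In that list 4 genes had an unadjusted p under 0.05 (median 0.61), and DESeq2 called 3 higher and 1 lower, Mageb16 (-2.48, adjusted p = 0.0172 in edgeR), which is named after its values were seen. Of 30 germline genes silenced by promoter methylation 24 passed, 0 were called, 7 were called higher with DESeq2, and 9 had an unadjusted p under 0.05 (median 0.74). PGC-like cells, which use germline genes, numbered 24, 49, 15 and 6 of 7038, 9550, 2294 and 1008 embryonic cells in Tet-TKO and 10 and 4 of 7540 and 8754 in WT host, and their part in this median was not tested. Of 15 silencers of such genes all passed and 0 were called, with 1 at an unadjusted p under 0.05 (median 0.0365).

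Across 192 sums of a class and library with at least 30 cells, the members were set beside 14280 genes by Pearson's correlation of log2(CPM + 1). The sums share libraries and depth, so the correlations are descriptions. The genes most like Elf5 were Gm9 (r = 0.912), Rhox1 (0.883), Duoxa2 (0.875), Bmp8b (0.870) and Nr0b1 (0.867). Those most like Tfap2c included Fbxo2 (0.624), Tfap2a (0.613), Lck (0.611) and Large2 (0.595). Those most like Rhox5 were Tfeb (0.758), Atp6v0c (0.748), Lamp1 (0.747), Mageb16 (0.744) and Trap1a (0.724), of which Lamp1 and Atp6v0c belong to the lysosome and Tfeb controls lysosomal genes.

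Rhox6 was most like Triml2 (0.865), Mageb16 (0.841), Rhox9 (0.80), Prss16 (0.779) and Sfmbt2 (0.757). Rhox9 was most like Rhox6 (0.80), Zfp42 (0.790), AU015836 (0.789), Sox15 (0.771) and Esrrb (0.766). Among the members, Rhox6 and Rhox9 were therefore the pair most alike, and Tfap2c and Rhox5 the pair least alike (0.013). Elf5 had correlations of 0.411 with Tfap2c, 0.543 with Rhox5, 0.618 with Rhox6 and 0.565 with Rhox9.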

How the data were processed

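The authors deposited UMI counts per gene and cell for 8 libraries, made with Cell Ranger (5.0.0 in the methods, 3.1.0 in the file headers) against mm10 and Ensembl 92 genes with tdTomato added. Cells with at least 1500 UMIs, at most 30% mitochondrial and 35% ribosomal UMIs were kept. Cells of each stage were clustered without the members (2500 variable genes, 50 components, mutual nearest neighbours from the WT host libraries, an order chosen after seeing the data, and Leiden resolution 2), and clusters were named from marker lists. Doublets were called but removed only as an alternative. UMIs were summed per library and class (at least 10 cells) and tested with edgeR 4.0.16 (filterByExpr, TMM, quasi-likelihood), p-values being adjusted over all genes of a fit. Cells are not replicates; embryos were pooled, so p-values measure the spread between libraries. On simulated embryonic sums, the fit found 24%, 100% and 100% of 50 genes changed 2-, 4- and 8-fold, with 1 false call among 20524 genes. The simulated libraries were drawn independently, with the same dispersion for every gene. They therefore do not show how many false calls alike libraries give. DESeq2 1.42.0, other normalisation, filters, cell sets, clusterings and left-out libraries were alternatives. Named genes were the 5 members, other Rhox genes that passed the filter, up to 4 called genes per list and the 5 genes most like each member, 1 of which is not reported here; a few leading genes and markers of clusters are named as descriptions. The members and lists were chosen with earlier results of these data known.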

Additional observations from a re-analysis of the deposited data

Results flagged for a closer look

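The difference between Tet-TKO and WT host in Rhox5 was compared between 2 classes at E8.5. On the log2(CPM + 1) scale, blood progenitor-like minus gut endoderm-like cells gave 2.30, 1.49, 1.88 and 2.89 in the Tet-TKO libraries and -3.70 and -3.00 in the WT host libraries, so each Tet-TKO library had more Rhox5 in blood progenitor-like cells and each WT host library more in gut endoderm-like cells. The genotypes differed by 5.49 in this difference. The classes were set side by side because Rhox5 had been called in opposite directions in them, so no p is given for it.

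Rhox6 in Tet-TKO PGC-like cells at E8.5 stood at 101 CPM in library 2, from 52 UMIs, far from the 21.0 to 25.3 CPM of the other 3. Rhox9 in surface ectoderm-like cells at E8.5 stood at 6.48 CPM in Tet-TKO library 1, far from the 1.43 to 2.12 CPM of the other 3. Of the 22 groups of 4 Tet-TKO libraries looked at for a library far from the rest, chance would flag about 1 in 20.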

How the results depend on the processing

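Elf5 in embryonic cells kept its direction under every alternative run, and it was called with DESeq2 (-2.30), with no filter on low counts (-2.30), among cells whose tdTomato matched their fraction (-2.27), in named classes alone (-2.32) and without gut endoderm-like cells (-2.42, added after seeing the data); with each library left out it lay between -2.52 and -2.01. Rhox9 there was called with DESeq2 (2.81), lay between 2.26 and 3.64 with each library left out, and was 1.81 without PGC-like cells (added). Tfap2c turned to -0.14 without blood cells and to -0.0126 without PGC-like cells (added). Rhox5 turned to 0.21 without WT host library 1 (range -0.71 to 0.21) and to 0.35 without gut endoderm-like cells, and Rhox6 turned to 0.43 without the latter (added). Over all kept cells, Rhox5 was called with DESeq2 (-2.80), with no filter (-2.81) and without WT host library 2 (-3.36; range -3.36 to -1.89). Elf5 there ranged from -5.88 to -4.35 with each library left out. Rhox6 there ranged from -4.01 to -2.85, and Rhox9 from -0.79 to 0.39, its sign turning without WT host library 1. Calls of members within classes, 2 in the report, numbered 4 with DESeq2, 8 with no filter and 1 to 3 with a library left out. The shares of all class tests called under those settings are not given here. In embryonic cells DESeq2 called 5.4% of all genes against 2.02% with edgeR, so a higher count need not be particular to the members. In surface ectoderm-like cluster 25 alone Tfap2c turned to -0.15. The 422 genes called in embryonic cells became 1130 with DESeq2, 24 to 254 with a library left out (24 without WT host library 2), 213 without blood cells and 4 when Tet-TKO libraries 1 and 2, and 3 and 4, were summed. The 1 list gene called became 14 with DESeq2, 4 with no filter, 2 with tdTomato matching, 3 without gut endoderm-like cells, 0 with the Tet-TKO pairs summed and 0 to 1 with a library left out. Without thinning, the E7.5 WT host ExE ectoderm-like cells with a UMI made up 94.0% for Elf5, 84.2% for Tfap2c, 60.9% for Rhox6 and 39.2% for Rhox9, against 78.7%, 50.5%, 31.1% and 16.5% at 5000 UMIs. The cause of these changes was not tested, except that a deeper cell shows more members.

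The paper describes pooled embryos sorted into both fractions, and sets Tet-TKO samples against matching hosts. Libraries 1 and 2 of each genotype share a number in the labels (2 pairs, correlation of deviations 0.305). Whether an equal number means the same pool is not stated. With the replicate block on those 4 libraries, Elf5 (-2.61) and Rhox9 (2.66) were called in embryonic cells and Rhox5 turned to 0.15. Rhox5 over all cells was called (-2.28), and members were called 10 times within classes. In embryonic cells 1697 genes and 25 list genes were called, against 422 genes in the main fit. The Tet-TKO libraries of the block fit are an alike pair, so its calls add no independent support for the members.

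A class fit without Tet-TKO library 4 could not be made for erythroid-like, notochord-like, neural crest-like and cluster 29 cells, nor a fit of neural crest-like cells without Tet-TKO library 1 or with the block. Members under 1 CPM rest on few UMIs per library, Tet-TKO libraries 3 and 4 hold the fewest cells, and the E7.5 values have no replicate.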
